A study of Mus musculus with 6 samples.

Results

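The septins described here are the genes that the deposited transcript table stores under a spreadsheet date, a number followed by "-Sep" in place of a gene symbol. In all, 17 of the 15113 listed transcripts carry such a name, and they lie at 8 of the 7171 loci. Each transcript was named again through its Ensembl identifier, and all 17 identifiers were found in GENCODE M21, an annotation of the mouse GRCm38 build. By that check 15 transcripts at 7 loci belong to Sept2, Sept5, Sept7, Sept8, Sept9, Sept10 and Sept11, and the number in the date is the number of the septin. The other 2 transcripts, stored as 15-Sep, belong to Selenof, which encodes a selenoprotein of the endoplasmic reticulum and is not a septin. Selenof is therefore kept apart from the 7 septins below. The Sept8 locus also held 2 transcripts and the Sept10 locus 1 transcript with an assembly number and no gene name, and these 3 enter the locus sums. GENCODE M21 annotates 13 septin genes. No annotated transcript of the remaining ones was listed, so they were not analysed here.

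RNA was sequenced from cultures of C17.2, a line of mouse neural stem cells recorded as CD1 x C57BL/6, in 3 groups labelled as 2 biological replicates each. The groups were cells treated with heme, cells after neural induction in Knockout DMEM with N2 supplement and BDNF at 10 ng/ml, and control cells in DMEM/F12 growth medium with 10% fetal bovine serum. The labels give neither the dose and duration of heme nor the medium of the heme-treated cells, so heme and medium cannot be told apart from these sources. All groups are 1 cell line, and bulk RNA does not separate fewer cells of a kind from less RNA per cell. The values are FPKM, which scales the fragments of a transcript to its length and to the depth of its library.

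Both heme columns hold 1 set of measurements. Across 13963 transcripts the second heme column divided by the first lay between 1.25 and 1.5, and the same 1150 transcripts were at 0 in both columns. For the 18 transcripts at the septin loci the ratio lay between 1.26 and 1.498. Heme was therefore counted as 1 library, the replicate 1 column, and no spread between heme replicates can be given. The 5 libraries rested on 4.14 to 4.56 mapped gigabases each. The progenitor genes Nes, Sox2 and Vim were listed, with a summed level of 809 to 949 FPKM, whereas Pax6 and Msi1 were not listed. Tubb3 and Map2 were the only neuronal markers listed of 5 and summed to 21.8 to 32.6 FPKM. None of the astrocyte, microglial, endothelial or erythroid markers was listed.

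Septins are GTP-binding proteins that join end to end into rods and then into filaments and rings on membranes, on actin bundles and on microtubules. Each rod draws subunits from groups of interchangeable septins named after Sept2, Sept6, Sept7 and Sept3, and Sept7 is the sole member of its own group. Septins are best known for the ring at the cleavage furrow of dividing cells and, in nervous tissue, for roles at synaptic vesicles, dendritic branches and growing axons.

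The sequences below show where the transcripts begin at Sept2 and Sept9, loci whose leading annotated coding transcript differed between libraries. Each is a RefSeq promoter window on GRCm38.p6, 250 bases before to 50 after an annotated start, and all lie on the plus strand. Capitals mark the first 10 bases of each listed coding transcript that starts inside the window. The Sept2 window at chr1:93478811-93479110 holds 2 starts, that of ENSMUST00000172165 and ENSMUST00000179353 at the first capitals and that of ENSMUST00000168776 at the second. Of the 3 Sept9 windows, chr11:117265996-117266295 holds the start of the long transcript ENSMUST00000019038. The starts of the short transcripts lie in chr11:117331465-117331764 for ENSMUST00000100193 and in chr11:117332063-117332362 for ENSMUST00000106349. The other long transcript, ENSMUST00000106354, starts at chr11:117232285, outside these windows, so the Sept9 long window stands for ENSMUST00000019038 alone.
Sept2: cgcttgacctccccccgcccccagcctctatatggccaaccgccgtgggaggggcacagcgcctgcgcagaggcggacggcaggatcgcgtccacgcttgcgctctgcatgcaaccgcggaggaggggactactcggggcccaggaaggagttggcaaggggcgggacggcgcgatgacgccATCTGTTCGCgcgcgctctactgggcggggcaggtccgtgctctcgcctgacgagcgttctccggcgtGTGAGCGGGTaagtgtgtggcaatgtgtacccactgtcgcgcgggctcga
Sept9 long: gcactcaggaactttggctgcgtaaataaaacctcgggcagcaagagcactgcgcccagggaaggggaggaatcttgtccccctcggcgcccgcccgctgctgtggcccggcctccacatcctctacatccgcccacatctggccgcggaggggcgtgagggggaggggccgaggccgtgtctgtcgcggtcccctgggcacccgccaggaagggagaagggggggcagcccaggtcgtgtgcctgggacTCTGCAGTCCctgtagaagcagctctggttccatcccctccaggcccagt
Sept9 short, ENSMUST00000100193: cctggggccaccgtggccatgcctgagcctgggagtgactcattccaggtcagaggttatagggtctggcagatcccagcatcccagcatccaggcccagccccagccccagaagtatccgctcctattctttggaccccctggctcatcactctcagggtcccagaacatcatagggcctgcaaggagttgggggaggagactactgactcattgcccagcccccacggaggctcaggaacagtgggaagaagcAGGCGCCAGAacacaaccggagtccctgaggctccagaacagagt
Sept9 short, ENSMUST00000106349: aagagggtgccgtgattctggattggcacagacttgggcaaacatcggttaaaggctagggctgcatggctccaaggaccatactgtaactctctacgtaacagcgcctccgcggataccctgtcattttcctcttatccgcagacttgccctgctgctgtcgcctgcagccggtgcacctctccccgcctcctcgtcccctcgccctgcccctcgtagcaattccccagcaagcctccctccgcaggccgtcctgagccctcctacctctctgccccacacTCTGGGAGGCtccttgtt

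The windows differed in base composition. The Sept2 window was 69.3% G and C with 36 CpG dinucleotides, and the Sept9 long window was 67.7% G and C with 18 CpG. Both short Sept9 windows were 60.7% G and C, with 5 CpG at the ENSMUST00000100193 start and 15 CpG at the ENSMUST00000106349 start. Over 32851 RefSeq windows of this length the medians were 52.7% and 7 CpG. Searched on both strands, TATAAA was in none of the 4 windows and in 13.6% of all windows. GGGCGG was in the Sept2 and Sept9 long windows and in 35.7% of all windows. CCAAT was in the ENSMUST00000106349 window and in 37.4% of all windows. These matches describe letters in the windows and nothing about binding.

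The 7 septins differed widely in level, and their order was the same in all 5 libraries: Sept7, Sept11, Sept2, Sept9, Sept8, Sept5 and Sept10. Their summed level was 517 FPKM in the heme library, 546 and 540 FPKM in the neural induction libraries and 552 and 479 FPKM in the control libraries. Neighbours in this order did not overlap over the 5 libraries except Sept11 and Sept2, where the lowest Sept11 value was 110.7 FPKM and the highest Sept2 value 111.1 FPKM. Sept7 had a higher mean level than 94.6% of all loci and Sept10 a higher one than 42.6%.

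**Figure D1:**
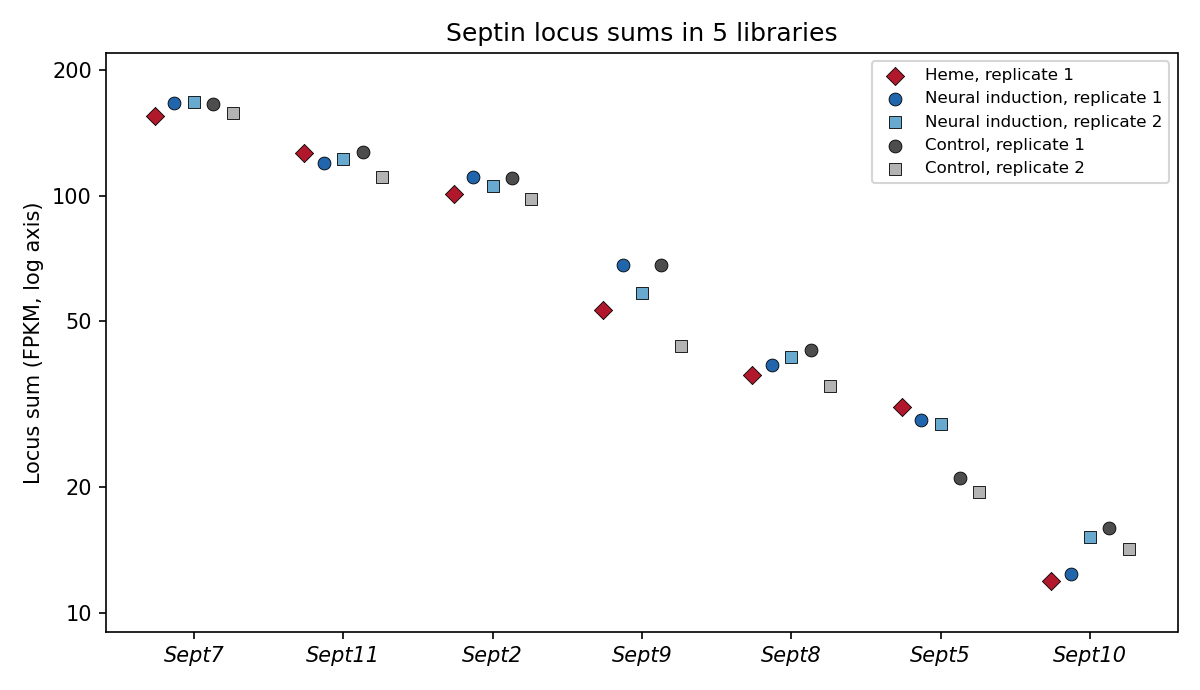
FPKM summed over the listed transcripts of each septin locus, on a log axis, with 1 point per library and septins ordered by mean level. Sept7 lay between 155.7 and 168.2 FPKM and Sept10 between 11.95 and 16.0 FPKM, and Sept5 is the septin whose heme and neural induction points all lie above both control points.

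Heme treatment left most septin sums within or close to the range of the controls. No septin locus changed at an adjusted p below 0.05 in limma: 0 of 7 passed, where the background was 0.0426% of 7039 loci. Sept5 was the 1 septin with an unadjusted p below 0.05, which 3.59% of all loci had, and it was the 1 septin whose heme value lay above both controls, as at 25.5% of loci. Sept7 and Sept10 lay below both controls in the heme library, as 31.1% of loci did. The median log2 fold change of the 7 septins was -0.05, and that of all loci was -0.00353.

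Sept5, a septin enriched in neurons that associates with synaptic vesicles and the syntaxin machinery, is on chromosome 16 at chr16:18621811-18629938 (GRCm38, minus strand) and had 1 listed transcript, ENSMUST00000096987. It had 31.2 FPKM in the heme library, 28.9 and 28.4 FPKM in the neural induction libraries and 21.03 and 19.5 FPKM in the control libraries. All 3 treated libraries lay above both controls, a pattern that 9.26% of loci shared, and the heme value was the highest. The log2 fold change on log2(FPKM + 1) was 0.60 ± 0.12 (SE) for heme against control, with an unadjusted p of 0.0053 and an adjusted p of 0.761 in limma. For neural induction against control it was 0.48 ± 0.10, with an unadjusted p of 0.0057 and an adjusted p of 0.930 in limma. Both contrasts use the same control libraries. In an exact two-sided permutation test of the neural induction and control sums p was 0.333, the smallest that 2 against 2 libraries allow. The Sept5 exons overlap those of Gp1bb on the same strand by 593 bases, and those of the predicted gene Gm49601 by 999 bases, out of 2143 exonic bases in GENCODE M21. Gp1bb encodes a platelet surface glycoprotein, and neither it nor Gm49601 was listed under its own name, so reads of these genes cannot be told apart from Sept5 reads in the overlap. No exon of an annotated gene with a different symbol overlapped the date-named transcripts of the other 6 septins. The Sept2 transcripts carry 2 Ensembl gene identifiers under that 1 symbol. The unnamed transcripts at Sept8 and Sept10 were not checked for overlap.

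Sept2, the septin of the same group that is needed for the cleavage furrow, is at chr1:93478993-93509733 (plus strand). Its sum was 101.1 FPKM in the heme library, 111.1 and 105.5 FPKM in the neural induction libraries and 110.6 and 98.5 FPKM in the control libraries. The heme value lay between the controls, and the neural induction libraries overlapped them. Its log2 fold change was -0.05 ± 0.11 for heme and 0.05 ± 0.09 for neural induction, both against control.

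Sept7, the only member of its group and a subunit of most septin rods, is at chr9:25252439-25308571 (plus strand) and had 1 listed transcript, ENSMUST00000165594. It had 155.7 FPKM in the heme library, 166.6 and 168.2 FPKM in the neural induction libraries and 165.7 and 157.7 FPKM in the control libraries. The heme value was just below both controls and both neural induction values were just above them, within a total range of 1.08-fold. Its log2 fold change was -0.05 ± 0.08 for heme and 0.05 ± 0.07 for neural induction. The range of Sept7 over the 5 libraries on the log2(FPKM + 1) scale was 0.11, and 6.57% of 5983 loci with a mean of at least 5 FPKM had a smaller one.

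The Sept6 group was represented by Sept11, Sept8 and Sept10. Sept11, which is found at dendritic spines and branches of neurons in rodents, is at chr5:93093437-93176437 (plus strand). It had 126.6 FPKM in the heme library, 119.7 and 122.7 FPKM in the neural induction libraries and 127.6 and 110.7 FPKM in the control libraries. The control libraries spanned all the others, and the log2 fold change was 0.09 ± 0.11 for heme and 0.03 ± 0.09 for neural induction. Sept8, which binds the vesicle protein VAMP2 in rat brain, is at chr11:53519800-53544096 (plus strand). Its sum was 37.3 FPKM in the heme library, 39.3 and 41.1 FPKM in the neural induction libraries and 42.7 and 34.9 FPKM in the control libraries. Here too the controls spanned the others, with a log2 fold change of -0.05 ± 0.15 for heme and 0.06 ± 0.12 for neural induction. Sept10 is at chr10:59164113-59221847 (minus strand). It had 11.95 FPKM in the heme library, 12.4 and 15.2 FPKM in the neural induction libraries and 16.0 and 14.3 FPKM in the control libraries. The heme value was the lowest of the 5 and one neural induction library lay between the controls. The log2 fold change of Sept10 was -0.31 ± 0.19 for heme, with an unadjusted p of 0.171 and an adjusted p of 0.998 in limma, and -0.13 ± 0.16 for neural induction.

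Sept9, the listed member of the Sept3 group, whose long forms in human cells carry an amino-terminal extension that binds microtubules, is at chr11:117232285-117362324 (plus strand). It had 53.4 FPKM in the heme library, 68.1 and 58.3 FPKM in the neural induction libraries and 68.3 and 43.6 FPKM in the control libraries. The control libraries differed from each other by 1.57-fold and spanned all the others. Against control the log2 fold change was -0.03 ± 0.29 for heme and 0.20 ± 0.24 for neural induction. The range of Sept9 on the log2(FPKM + 1) scale was larger than that of 80.8% of loci, close to the 81.9% of Sept5, but the Sept9 range lay within 1 group.

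After neural induction the septin sums other than Sept5 lay close to the controls. In limma 0 of 7 septin loci had an adjusted p below 0.05 against control, with a background of 0.0142% of loci. At an unadjusted p below 0.05 there was 1, Sept5, and the background was 3.05%. Sept5 and Sept7 lay above both controls in both neural induction libraries, 2 of 7 septins where 18.2% of loci did so, and 0 septins lay below both controls, as 13.0% of loci did. The median log2 fold change was 0.05 over the septins and 0.02 over all loci.

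Heme against neural induction gave 0 septin loci at an adjusted p below 0.05 in limma, with a background of 0.0568%, and 0 at an unadjusted p below 0.05, where the background was 3.38%. Sept5 and Sept11 were higher in the heme library than in both neural induction libraries, as 27.3% of loci were. The other 5 septins were lower in the heme library than in both, as 40.3% of loci were. Their log2 fold changes ran from -0.24 ± 0.29 for Sept9 to -0.10 ± 0.11 for Sept2, and that of Sept5 was 0.12 ± 0.12.

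**Figure D2:**
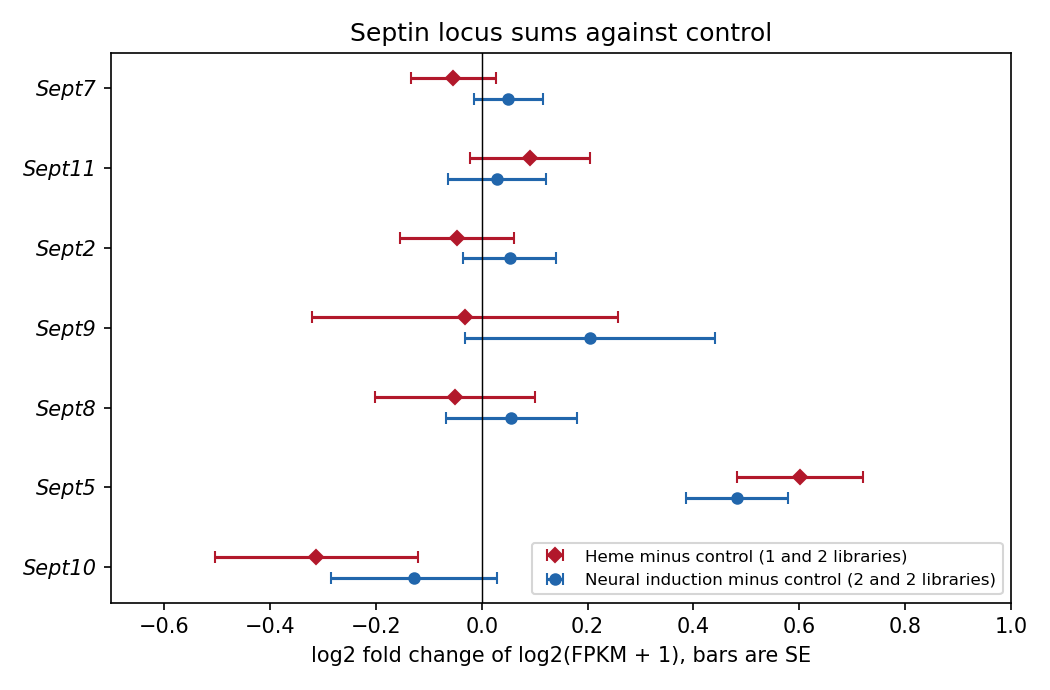
Log2 fold change of each septin sum against control on the log2(FPKM + 1) scale, heme above neural induction in each row, with bars of 1 SE from limma. The heme contrast sets 1 heme library against 2 control libraries, within 1 fit of all 5 libraries. The Sept5 changes of 0.60 and 0.48 stand farthest from 0, and no septin passed an adjusted p of 0.05.

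The control libraries themselves differed in the septins. Control replicate 1 was above control replicate 2 for 7 of 7 septins, where 51.9% of loci had that order, and control replicate 2 was the lowest of the 5 libraries for 5 of 7 septins, where 34.5% of loci had it lowest. For Sept9, Sept8, Sept11, Sept2 and Sept5 the fold between controls ran from 1.57 down to 1.08. Which control library a septin is set against therefore fixed the sign of several small changes: against control replicate 2 alone Sept9 was 0.29 higher in the heme library on the log2 scale, and against control replicate 1 alone it was -0.35.

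Relative to Sept7, with which septins of the other groups share their rods, the groups kept their order in each library. The Sept6 group summed to 1.13 times the Sept7 level in the heme library, 1.03 and 1.06 times in the neural induction libraries and 1.12 and 1.01 times in the control libraries. The Sept2 group summed to 0.850 times Sept7 in the heme library, 0.841 and 0.796 times in the neural induction libraries and 0.795 and 0.748 times in the control libraries. Sept9 stood at 0.343 times Sept7 in the heme library, 0.409 and 0.347 times in the neural induction libraries and 0.412 and 0.276 times in the control libraries. The 3 treated libraries were above both controls in the Sept2 group ratio, though neural induction replicate 2 was almost level with control replicate 1. The share of loci with such a split in a ratio to Sept7 was not computed. The Sept2 group sum itself was 132.3 FPKM in the heme library and 131.6 FPKM in control replicate 1. Sept7, the divisor, was lowest in the heme library, and of the 2 members Sept2 overlapped the controls and Sept5 did not. The groups overlapped in the other 2 ratios. Within the Sept2 group, Sept5 made up 23.6% of the sum of Sept2 and Sept5 in the heme library, 20.7% and 21.2% in the neural induction libraries and 16.0% and 16.5% in the control libraries. These ratios are of RNA levels per length and do not measure rods.

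**Figure D3:**
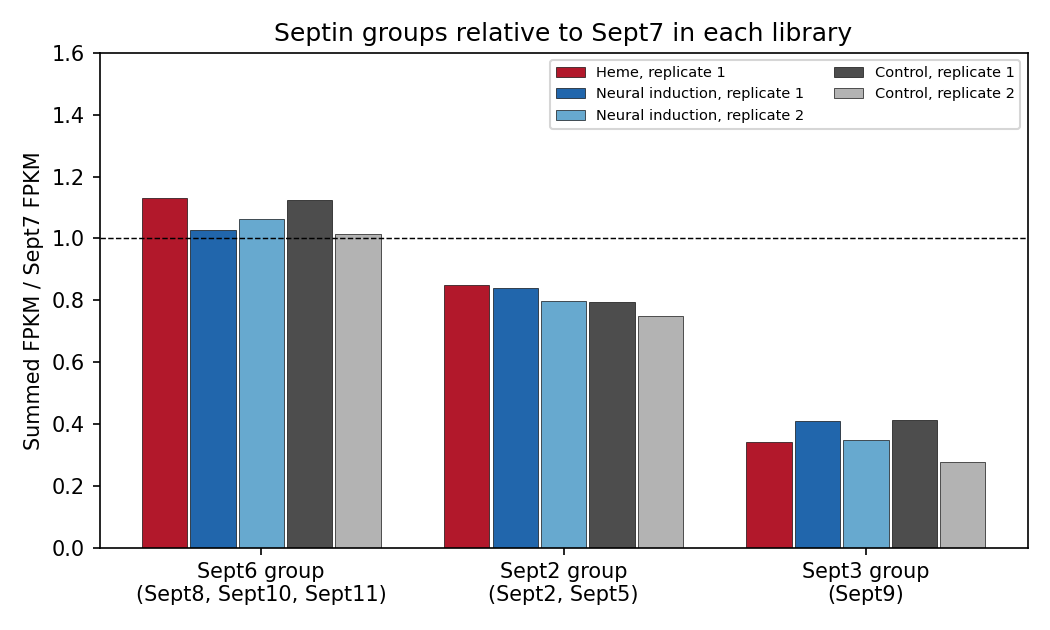
FPKM summed over the listed members of each septin group, divided by the Sept7 FPKM of the same library, with 1 bar per library and a dashed line at the Sept7 level. The Sept6 group lies between 1.01 and 1.13, the Sept2 group between 0.748 and 0.850 and Sept9 between 0.276 and 0.412 times Sept7.

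The individual transcripts of Sept2, Sept9 and Sept8 differed between replicates of 1 group by far more than their locus sums did. In limma 0 of the 14 date-named septin transcripts that passed the filter of at least 1 FPKM in 2 libraries were called in each of the comparisons. There were 15 date-named ones in all, and the unnamed transcripts are outside these counts. The backgrounds were 0.0728% of 13737 transcripts for heme against control, 0.00728% for neural induction against control and 0.0801% for heme against neural induction. At an unadjusted p below 0.05 there were 2 for heme (Sept5 and ENSMUST00000202308 of Sept11), 1 for neural induction (Sept5) and 0 between the treatments, where 4.95%, 4.98% and 4.96% of all transcripts passed. In the heme library 5 of the 14 lay above both controls, as 29.4% of transcripts did, and 4 lay below both, as 31.0% did. Both neural induction libraries lay above both controls for 5 of the 14, where 17.2% of transcripts did so, and below both for 0, where 13.9% did. Sept5, the long ENSMUST00000019038 and the short ENSMUST00000100193 of Sept9 and ENSMUST00000202308 of Sept11 were above both controls in all 3 treated libraries, as 9.65% of transcripts were. Against both neural induction libraries the heme library was higher for 3 of the 14, where 29.5% of transcripts were, and lower for 4, where 36.0% were.

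At Sept2 the leading transcript was a different one in neural induction replicate 1 than in the other 4 libraries. ENSMUST00000168776 had 87.8 FPKM in the heme library, 4.27 and 95.2 FPKM in the neural induction libraries and 91.8 and 80.5 FPKM in the control libraries. ENSMUST00000172165 had 1.55 FPKM in the heme library, 74.7 and 1.57 FPKM in the neural induction libraries and 1.97 and 2.24 FPKM in the control libraries. ENSMUST00000179353 had 8.20 FPKM in the heme library, 28.1 and 8.04 FPKM in the neural induction libraries and 10.4 and 11.9 FPKM in the control libraries. Neural induction replicate 1 was thus the low library for the first and the high library for the others, and neural induction replicate 2 stood with the heme and control libraries. Together the 3 coding transcripts summed to 97.5 FPKM in the heme library, 107 and 105 FPKM in the neural induction libraries and 104 and 94.7 FPKM in the control libraries. The sum did not show the split. The log2 fold change of ENSMUST00000172165 for neural induction was 2.17 ± 1.76, with an adjusted p of 0.938 in limma, and without neural induction replicate 1 it was -0.27. That of ENSMUST00000168776 was -1.95 ± 1.48, with an adjusted p of 0.938 in limma, and without that library it was 0.15.

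ENSMUST00000172165 and ENSMUST00000168776 share 3124 exonic bases, with 68 and 143 bases of their own. ENSMUST00000172165 differs from ENSMUST00000179353 only in lacking a 27-base exon at chr1:93489128-93489154 (GRCm38, plus strand), shown here because it holds the start of the longer reading frame. In the sequence, from the GENCODE M21 transcript, capitals mark its 9 coding bases, which begin with the start codon.
Sept2 exon: acaggaaaatcaagaaagATGTCTAAG

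Without that exon the annotated coding sequence is 963 bases long, against 1083 bases in both ENSMUST00000179353 and ENSMUST00000168776. How far the assignment of reads from shared exons moved with the library was not tested. The annotated retained-intron transcript of Sept2, ENSMUST00000152778, which has no coding sequence, lay between 0.755 and 6.46 FPKM.

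**Figure D4:**
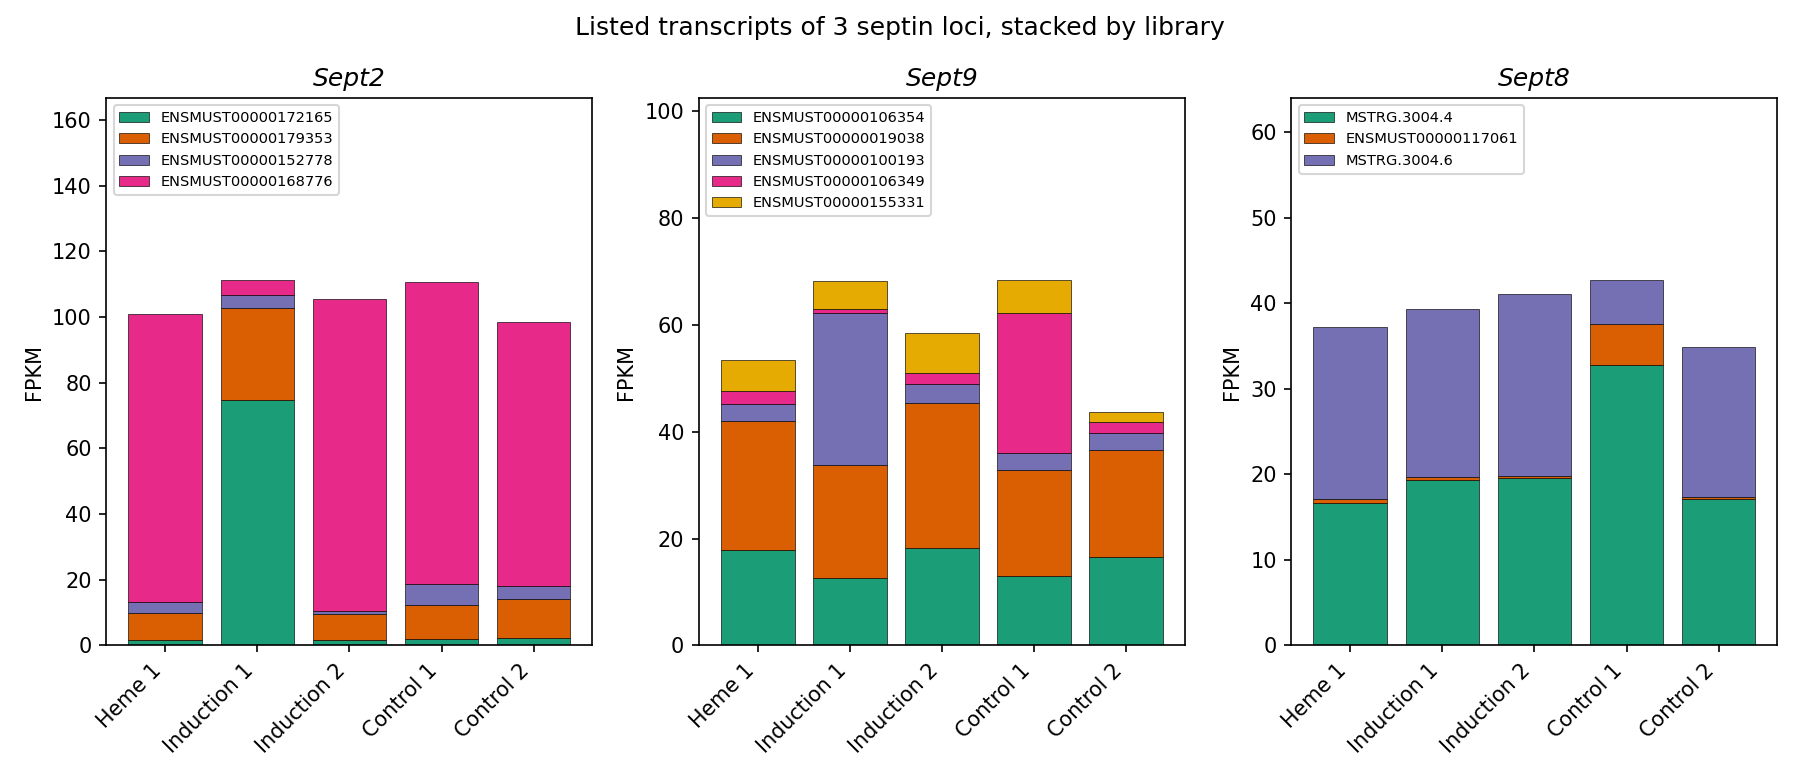
FPKM of the listed transcripts at Sept2, Sept9 and Sept8, stacked within each of the 5 libraries. The Sept2 bars are led by ENSMUST00000172165 in neural induction replicate 1 at 74.7 FPKM and by ENSMUST00000168776 elsewhere, and the Sept9 bars carry a block of 28.4 FPKM of ENSMUST00000100193 in neural induction replicate 1 and of 26.2 FPKM of ENSMUST00000106349 in control replicate 1.

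Sept9 had 5 listed transcripts, 2 long coding ones, 2 short coding ones that lack the first exons of the long forms, and 1 with a retained intron. The long ENSMUST00000019038 had 24.1 FPKM in the heme library, 21.04 and 27.1 FPKM in the neural induction libraries and 19.9 and 20.1 FPKM in the control libraries. All 3 treated libraries were above both controls, neural induction replicate 1 by less than 1 FPKM, and the log2 fold changes were 0.26 ± 0.22 for heme and 0.25 ± 0.18 for neural induction. The long ENSMUST00000106354 had 17.8 FPKM in the heme library, 12.7 and 18.3 FPKM in the neural induction libraries and 13.0 and 16.5 FPKM in the control libraries. The groups overlapped for neural induction.

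The short Sept9 forms split the libraries across the groups. ENSMUST00000100193 had 3.30 FPKM in the heme library, 28.4 and 3.48 FPKM in the neural induction libraries and 3.12 and 3.18 FPKM in the control libraries. ENSMUST00000106349 had 2.33 FPKM in the heme library, 0.766 and 2.12 FPKM in the neural induction libraries and 26.2 and 2.10 FPKM in the control libraries. One short form was high in neural induction replicate 1 alone and the other in control replicate 1 alone. Their sum was 5.63 FPKM in the heme library, 29.2 and 5.60 FPKM in the neural induction libraries and 29.3 and 5.28 FPKM in the control libraries, so both replicate 1 libraries of the induction and control groups were high. The sum of the long forms was 41.9 FPKM in the heme library, 33.7 and 45.4 FPKM in the neural induction libraries and 32.9 and 36.6 FPKM in the control libraries, lowest in the same pair of libraries. The short forms share 2790 exonic bases and have 134 and 142 bases of their own. They start at different first exons, and those starts are the capitals in the short Sept9 windows above. Both code for 1002 bases, against 1695 and 1728 bases in the long forms. For ENSMUST00000100193 the log2 fold change under neural induction was 1.47 ± 1.02, and 0.11 without neural induction replicate 1. That of ENSMUST00000106349 for heme was -1.46 ± 1.504, and 0.10 without control replicate 1. The retained-intron transcript ENSMUST00000155331 lay between 1.69 FPKM in control replicate 2 and 7.37 FPKM in neural induction replicate 2.

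At Sept8 the library apart was control replicate 1. The unnamed transcript MSTRG.3004.4 had 16.7 FPKM in the heme library, 19.4 and 19.6 FPKM in the neural induction libraries and 32.8 and 17.1 FPKM in the control libraries. MSTRG.3004.6 had 20.2 FPKM in the heme library, 19.6 and 21.2 FPKM in the neural induction libraries and 5.04 and 17.6 FPKM in the control libraries. The annotated ENSMUST00000117061, the transcript that gives the locus its name, had 4.83 FPKM in control replicate 1 and between 0.252 and 0.446 FPKM in the other 4 libraries, and did not pass the filter. Nearly all of the Sept8 sum therefore came from transcripts with no name in the table, from 88.7% in control replicate 1 to 99.3% in neural induction replicate 2.

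Sept10 and Sept11 kept 1 leading transcript in all 5 libraries. The annotated Sept10 transcript ENSMUST00000165971 had 9.60 FPKM in the heme library, 9.70 and 13.0 FPKM in the neural induction libraries and 11.4 and 9.50 FPKM in the control libraries. The unnamed MSTRG.1910.1 at the same locus had 2.35 FPKM in the heme library, 2.69 and 2.16 FPKM in the neural induction libraries and 4.53 and 4.76 FPKM in the control libraries. All 3 treated libraries were below both controls for the unnamed transcript. Over all transcripts 31.0% were below both controls in the heme library and 13.9% in both neural induction libraries. These are separate shares, and the share with all 3 treated libraries below both controls was not computed. The log2 fold change of MSTRG.1910.1 was -0.75 ± 0.58 for heme and -0.72 ± 0.47 for neural induction. At Sept11, ENSMUST00000074733 had 105 FPKM in the heme library, 104 and 108 FPKM in the neural induction libraries and 113 and 97.4 FPKM in the control libraries. The shorter ENSMUST00000202308 had 22.0 FPKM in the heme library, 15.5 and 15.1 FPKM in the neural induction libraries and 14.4 and 13.4 FPKM in the control libraries. It was highest in the heme library, and its log2 fold change there was 0.63 ± 0.20, with an unadjusted p of 0.0328 and an adjusted p of 0.894 in limma.

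A change of leading transcript between libraries was common in the table as a whole. It occurred at 3 of the 5 septin loci with 2 or more listed transcripts and at 1878 of 3385 such loci with at least 5 FPKM in every library, 55.5%. Neural induction replicate 1 alone differed at Sept2, as at 4.73% of those loci, and control replicate 1 alone at Sept8, as at 5.11%. The largest shift of a transcript's share at Sept2 was 86.3 percentage points, larger than at 93.5% of those loci, whose median was 39.2 points.

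The authors' deposited table of fold changes, from which p-values were adjusted here over all 15113 transcripts, had 1 of 15 septin transcripts below 0.05 for heme and 4 of 15 for neural induction, where 7.24% and 7.20% of the table passed. In the authors' deposited table the log2 fold change for neural induction was 5.14 for ENSMUST00000172165 and -4.40 for ENSMUST00000168776 of Sept2, 3.12 for ENSMUST00000100193 and -4.90 for ENSMUST00000106349 of Sept9. For heme the authors' deposited table gave -3.45 for ENSMUST00000106349. The counts of 15 leave out the unnamed transcripts at the septin loci. Of these, MSTRG.3004.6 of Sept8 was also below 0.05 in both comparisons, at 1.95 for heme and 1.91 for neural induction. In the authors' deposited table as a whole, most fold changes matched the ratio of the replicate 1 columns within 0.1 on the log2 scale. They did so for 97.0% of the 10699 transcripts compared for heme and 97.2% of the 10742 compared for neural induction. The transcripts given a fold change above are those in which neural induction replicate 1 or control replicate 1 stood apart from its own replicate.

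Of 14 septin partners, proteins that bind septins or the actin and myosin beside them, 9 were listed, and 0 of 9 were called in any comparison in limma, with the backgrounds of 0.0426%, 0.0142% and 0.0568% of loci given above. At an unadjusted p below 0.05 there were 0 against control, where 3.59% of loci passed for heme and 3.05% for neural induction, and 1 for heme against neural induction, Myh9, where 3.38% passed. Myh9, the heavy chain of non-muscle myosin II that septins scaffold, had 245 FPKM in the heme library, 203 and 211 FPKM in the neural induction libraries and 219 and 207 FPKM in the control libraries. The heme value was the highest, and the log2 fold change of heme against neural induction was 0.24 ± 0.08. Map4, a microtubule-binding protein whose access to microtubules is limited by septins in human cells, had 35.8 FPKM in the heme library, 42.7 and 42.2 FPKM in the neural induction libraries and 41.0 and 40.1 FPKM in the control libraries. It was lowest in the heme library, with a log2 fold change of -0.18 ± 0.10 against control. Among the others with the smallest p, the GTPase Rhoa had log2 fold changes against control of 0.14 ± 0.11 for heme and 0.14 ± 0.09 for neural induction, the adaptor Cd2ap 0.07 ± 0.10 for heme, and the cytoplasmic actin Actg1 0.10 ± 0.12 for neural induction. Cdc42, the GTPase whose effectors bind septins, had 161 FPKM in the heme library, 170.0 and 171 FPKM in the neural induction libraries and 167 and 159.8 FPKM in the control libraries, and the heme value lay between the controls.

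The Borg proteins, encoded by Cdc42ep1 to Cdc42ep5, are the Cdc42 effectors that bind septin filaments. All 5 were listed and 0 were called in limma, with 0 at an unadjusted p below 0.05, where 3.59% of loci passed for heme, 3.05% for neural induction and 3.38% between the treatments. All 5 log2 fold changes for heme against control were positive, as 49.2% of those of all loci were, from 0.10 ± 0.22 for Cdc42ep4 to 0.23 ± 0.35 for Cdc42ep5. For neural induction they ran from -0.02 ± 0.15 for Cdc42ep3 to 0.23 ± 0.28 for Cdc42ep5. Cdc42ep1 was the most abundant, with 71.2 FPKM in the heme library, 66.2 and 66.8 FPKM in the neural induction libraries and 70.4 and 57.2 FPKM in the control libraries. Control replicate 2 was the lowest library for all 5 Borg genes, and the sign of the list's median depended on the control. It was 0.33 for heme and 0.25 for neural induction against control replicate 2 alone, and -0.045 and -0.16 against control replicate 1 alone.

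Of 15 cytokinesis genes all were listed and 0 were called in limma. At an unadjusted p below 0.05 there was 1 for heme, Aurkb, where 3.59% of loci passed, and 2 for neural induction, Aurkb and Cep55, where 3.05% passed. Between the treatments there were 0, where 3.38% passed. Aurkb, the kinase of the chromosomal passenger complex, had 19.8 FPKM in the heme library, 22.5 and 20.4 FPKM in the neural induction libraries and 13.3 and 14.8 FPKM in the control libraries. Cep55, which recruits the abscission machinery to the midbody, had 12.2 FPKM in the heme library, 12.8 and 14.1 FPKM in the neural induction libraries and 8.98 and 6.95 FPKM in the control libraries. For both genes all 3 treated libraries lay above both controls, as at 9.26% of loci. Aurkb had a log2 fold change of 0.47 ± 0.15 for heme and 0.58 ± 0.12 for neural induction, and Cep55 one of 0.57 ± 0.22 for heme and 0.69 ± 0.18 for neural induction. For Aurkb the adjusted p in limma was 0.998 for heme and 0.935 for neural induction. Among the others with the smallest p, Ect2 was at -0.16 ± 0.10 and Birc5 of the passenger complex at -0.12 ± 0.09 for heme, and the midzone protein Prc1 was at 0.27 ± 0.15 and Cdca8 of the passenger complex at 0.24 ± 0.12 for neural induction. The list's median log2 fold change was 0.11 for heme and 0.24 for neural induction, where all loci had -0.00353 and 0.02. These medians rested on control replicate 2, which was the lowest of the 5 libraries for 9 of the 15 genes. Against control replicate 1 alone the list's median was -0.014 for heme and -0.0049 for neural induction, and against control replicate 2 alone it was 0.24 and 0.37. Plk1, a mitotic kinase named after its values were seen, had 51.6 FPKM in the heme library, 53.7 and 50.5 FPKM in the neural induction libraries and 55.0 and 25.3 FPKM in the control libraries, so control replicate 2 alone stood apart.

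Likeness of pattern was measured as the root mean square difference of log2(FPKM + 1) deviations from each gene's own mean over the 5 libraries. Of 5982 loci the closest to Sept7 was S100a4 at 0.0111, then Zfr at 0.0121 and Cdc42 at 0.0139, where the median locus was at 0.125. Sept7 was nearly flat, with a range of 0.11 on this scale, so loci close to it are ones that also varied little. The closest to Sept5 was Lrrc58 at 0.0375, then Slc45a4 at 0.0575 and Usf1 at 0.0688, where the median locus was at 0.282. Slc45a4 had 21.6 FPKM in the heme library, 20.2 and 20.4 FPKM in the neural induction libraries and 13.3 and 13.5 FPKM in the control libraries, the same split of treated and control libraries as Sept5. These are descriptions over 5 libraries that share 1 normalization.

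Selenof, the gene stored as 15-Sep, is at chr3:144570426-144597680 (plus strand). Its sum was 185.8 FPKM in the heme library, 140.4 and 144.6 FPKM in the neural induction libraries and 144.5 and 120.4 FPKM in the control libraries. The heme library stood above the other 4, and both neural induction values were close to control replicate 1. The log2 fold change was 0.49 ± 0.13 for heme, with an unadjusted p of 0.0165 and an adjusted p of 0.989 in limma, and 0.11 ± 0.11 for neural induction. Counted by its stored name it would have entered as a septin numbered 15, with a level above that of Sept7 in the heme library and below it in the other 4.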

How the data were processed

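RNA of C17.2 cells was sequenced in 3 groups labelled with 2 replicates each. Per the labels' protocols, TruSeq RNA libraries were made of total RNA. The submitters' processing notes name HISAT2, StringTie, edgeR and the build GRCm38 (mm10), without versions. The authors deposited FPKM and coverage per transcript in 1 table. In another pair the authors deposited log2 fold changes, a likelihood ratio score and p-values per transcript. In the rows named by a date, the symbol was restored by Ensembl identifier from GENCODE M21, and 14 of the 17 transcripts had the same ends there. FPKM was summed over the listed transcripts of each StringTie locus. Coverage divided by FPKM is 1 constant per library and gave the depth: 4.30 gigabases for heme, 4.56 and 4.14 for neural induction and 4.44 and 4.35 for control. Read counts are not used here, so no counting interval is given.

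limma 3.58.1 in R 4.3.3 was fitted on log2(FPKM + 1) over all features with at least 1 FPKM in 2 libraries (lmFit, contrasts.fit, eBayes with trend, 5 libraries, 2 residual degrees of freedom, Benjamini-Hochberg over all features, threshold 0.05). With 1 heme library, its spread is taken from the other groups. Such fold changes understate the change of low transcripts. One list of cell type markers is not reported here. The septins, the gene lists and the tests were chosen with earlier results of these data known. All septins are named whatever their test. Of each gene list up to 4 genes with the smallest p per comparison are named, and likeness is given for the most abundant septin and the one with the largest range. Slc45a4, Cdc42ep1 and Plk1 levels and the 3 unnamed transcripts were picked after their values were seen. Alternatives were another pseudocount, no filter, median-of-ratios scaling, other uses of the heme columns, a replicate block, leaving out libraries, and sums over the date-named transcripts alone.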

Additional observations from a re-analysis of the deposited data

How the results depend on the processing

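No alternative for which septin calls were counted gave one. Locus sums had 11 alternatives (Sept8 had 10) and transcripts had 10. Transcripts between the treatments were fitted under the alternatives too, but their septin calls were not counted. Over the 34 fold changes followed, the lowest adjusted p in limma was 0.0576, for Sept5 in heme against control with all 6 columns as libraries. The log2 fold change of Sept5 ranged over its alternatives from 0.55 to 0.85 for heme, with adjusted p of 0.0576 to 1.000 in limma, and from 0.43 to 0.54 for neural induction, with adjusted p of 0.235 to 1.0 in limma. With all 6 columns as libraries the unadjusted p of Sept5 for neural induction was 0.0704 in limma, and 0 of 7 septins were then below 0.05. Another pseudocount, no filter and median-of-ratios scaling turned no sign. Use of the second heme column, which is the first times a factor, did, and it raised the median log2 fold change of all loci for heme against control to 0.21 with all 6 columns and to 0.23 with their mean. With all 6 columns the log2 fold change for heme against control became 0.21 for Sept2, 0.12 for Sept7, 0.13 for Sept8 and 0.18 for Sept9, and with the mean of both columns 0.23, 0.13, 0.14 and 0.20 for the same genes. For heme against neural induction it became 0.15 for Sept2, 0.066 for Sept7, 0.075 for Sept8 and 0.022 for Sept10 with all 6 columns, and 0.17, 0.076, 0.086 and 0.037 with the mean. Relative to the shifted median those genes stayed at or below it in heme against control. With all 6 columns 207 loci were called for heme against control, 51 for neural induction and 210 between the treatments, where 3, 1 and 4 were called with heme as 1 library.

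Leaving out 1 control or neural induction library turned the sign of 14 of 34 fold changes. Those of heme against control then ranged from -0.13 to 0.037 for Sept2, -0.19 to 0.090 for Sept8, -0.35 to 0.29 for Sept9, -0.010 to 0.19 for Sept11, -0.064 to 0.12 for ENSMUST00000168776 and -3.03 to 0.10 for ENSMUST00000106349. Those of neural induction against control ranged from -0.030 to 0.14 for Sept2, -0.085 to 0.20 for Sept8, -0.11 to 0.52 for Sept9, -0.26 to 0.0087 for Sept10, -0.073 to 0.13 for Sept11, -0.019 to 0.24 for Selenof, -4.04 to 0.15 for ENSMUST00000168776 and -0.27 to 4.61 for ENSMUST00000172165. Sept5 and Sept7 kept their signs. The heme library is the only one of its group and could not be left out. Summed over date-named transcripts alone, Sept10 was at -0.11 for heme against control, where the full locus sum gave -0.31. For neural induction it was then at 0.10, and Sept8 fell below the filter and gave no value.

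The labels do not say whether the replicate numbers pair the samples. Across 7039 loci the replicate difference in control and in neural induction correlated at -0.051. A correlation of 1 difference per group cannot show whether the samples were paired. With the replicate block 0 septins were called, ENSMUST00000100193 moved to -0.62 for heme against control, and 4, 2 and 6 loci were called. Small septin changes are limited by 2 control libraries that differ from each other and by 1 heme library. Beyond the heme factor, the cause of these shifts was not tested.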
